A study of Homo sapiens with 6 samples.

Results

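The interferon ligands and receptor chains that HT29 cells transcribe were described in RNA-Seq libraries of cells with and without knockdown of ALDOA, a glycolytic aldolase. The set held 10 of the 28278 genes listed in each file: the ligands IFNB1, IFNE, IFNL1 and IFNL2 and the receptor chains IFNAR1, IFNAR2, IFNLR1, IL10RB, IFNGR1 and IFNGR2. They were taken by gene symbol, and the set was chosen from earlier counts of the same libraries, in which IFNB1, IFNE and IFNL1 had more reads with siALDOA than with siControl. Their difference between the groups is therefore a description and carries no test. HT29 is a human colorectal adenocarcinoma line of epithelial morphology. Cells labelled ALDOA KD received siRNA against ALDOA (siALDOA) and the others a scrambled siRNA (siControl), with 3 libraries in each group that the labels call biological replicates, and RNA was taken after 48 h. Every library therefore came from cells of 1 line that had been given an siRNA. Nothing states whether the replicates were separate cultures, so the errors given here cover the spread between these libraries.

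Interferons are secreted proteins that warn neighbouring cells of infection and switch on antiviral genes. Type I interferons, among them IFNB1 and the epithelial IFNE, bind a receptor made of IFNAR1 and IFNAR2. Type III interferons, the lambda ligands, bind IFNLR1 paired with IL10RB, a chain that IL-10 family receptors also use, and they act mainly on epithelia such as the gut lining. The type II ligand IFNG is made by lymphocytes, and its receptor is built from IFNGR1, which binds the ligand, and IFNGR2, which is needed for signalling. All 3 receptors signal through JAK kinases and STAT factors.

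The 10 genes lie in a few clusters of the GRCh38 genome. IFNB1 (chr9:21077104-21077942) and IFNE (chr9:21480839-21482313) are genes without introns in the type I cluster of chromosome 9. IFNL2 (chr19:39268396-39270188) and IFNL1 (chr19:39296407-39298673) stand with IFNL3 (chr19:39243455-39245250) in 55.2 kb of chromosome 19. On chromosome 21 the chains IFNAR2 (chr21:33229938-33265664), IL10RB (chr21:33266367-33310182), IFNAR1 (chr21:33324395-33359864) and IFNGR2 (chr21:33402882-33437516) follow each other within 208 kb. IFNLR1 (chr1:24154168-24187289) and IFNGR1 (chr6:137197484-137219385) stand alone.

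The promoters of the 4 ligands are shown because the text turns on these genes' reads. Each line gives the 250 bases before the gene's start, 5' to 3' on the gene's strand, from RefSeq with build GRCh38.p14. Capitals mark letters that match 1 of 3 patterns on either strand: an interferon regulatory factor (IRF) core, AANNGAAA; an interferon-stimulated response element core, which is GAAA, 2 free bases and GAAA; and an NF-kappaB core, which is GGG, 5 free bases and CC. The second pattern contains the first, and the third is loose. The windows are chr9:21077943-21078192 for IFNB1 (minus strand), chr19:39296157-39296406 for IFNL1 (plus strand), chr19:39268146-39268395 for IFNL2 (plus strand) and chr9:21482314-21482563 for IFNE (minus strand).
IFNB1: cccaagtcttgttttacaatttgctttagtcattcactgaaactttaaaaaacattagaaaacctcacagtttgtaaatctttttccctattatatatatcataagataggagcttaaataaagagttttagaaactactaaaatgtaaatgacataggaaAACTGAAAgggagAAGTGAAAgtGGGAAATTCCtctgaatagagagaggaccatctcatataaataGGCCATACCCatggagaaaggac
IFNL1: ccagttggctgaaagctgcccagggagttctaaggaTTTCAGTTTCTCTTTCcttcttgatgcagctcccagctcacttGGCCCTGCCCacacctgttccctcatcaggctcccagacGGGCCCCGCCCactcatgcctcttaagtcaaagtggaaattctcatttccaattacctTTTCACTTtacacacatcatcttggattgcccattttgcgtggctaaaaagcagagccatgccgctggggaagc
IFNL2: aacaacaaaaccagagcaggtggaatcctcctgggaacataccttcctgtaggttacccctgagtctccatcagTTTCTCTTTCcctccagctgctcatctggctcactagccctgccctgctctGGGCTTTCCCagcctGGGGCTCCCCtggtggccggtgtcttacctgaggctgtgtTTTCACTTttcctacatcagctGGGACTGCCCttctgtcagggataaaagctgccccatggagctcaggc
IFNE: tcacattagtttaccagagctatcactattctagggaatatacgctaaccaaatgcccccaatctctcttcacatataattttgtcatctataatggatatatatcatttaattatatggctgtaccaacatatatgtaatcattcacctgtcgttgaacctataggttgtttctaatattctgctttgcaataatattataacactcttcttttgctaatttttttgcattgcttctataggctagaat

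The IFNB1 window held the IRF core at 2 places, from 89 and from 76 bases before the start, and the NF-kappaB match GGGAAATTCC from 66 bases before it. In the IFNL1 window the IRF core stood at 3 places and the response element core at 2, the latter overlapping from 214 and from 208 bases before the start. The IFNL2 window held the IRF core at 2 places, the response element core at 1 and the NF-kappaB core at 3. Its IFNL3 counterpart differed from it at 1 base. None of these patterns was found in the IFNE window, nor the AP-1 word TGANTCA or the gamma-activated word TTCNNNGAA, and IFNE is thus the ligand of the set without these letters in this window. Of 9 members with a window in the table, the IRF core was in 3, all of them ligands, against 20.3% of 35116 promoter windows. The response element core was in 2 of 9 against 3.02%, the NF-kappaB core in 6 of 9 against 54.4%, and the gamma-activated word in 2 of 9, IFNB1 and IFNLR1, against 6.57%. TGANTCA was in 0 of 9 against 6.57%. The IRF core was added after the sequences had been seen, and a match of letters is a description and not a binding site.

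The libraries held 27277538 to 33237914 counts on genes, and levels are given as CPM, reads scaled to the size of each library by TMM. Ribosomal RNA genes took 7.71% to 13.1% of the siALDOA counts and 8.15% to 17.4% of the siControl counts. Within the groups, siALDOA replicate 1 (13.1% ribosomal RNA) and siControl replicate 3 (8.15%) stood apart: their counts differed from those of the other replicates by a chi-square per degree of freedom of 34.2 and 39.3, and of 58.1 and 90.9, against 5.06 and 11.4 between the remaining pairs. ALDOA fell from 632 ± 38.2 CPM (SD, n = 3) with siControl to 289 ± 13.7 CPM (SD, n = 3) with siALDOA (edgeR quasi-likelihood test, Benjamini-Hochberg adjusted p = 6.95e-11). Of 12 epithelial and intestinal markers, 11 passed the filter on low counts, and LGALS4 was at 0 in every library. The summed level of the list was 9498 to 9834 CPM with siALDOA and 10071 to 10635 CPM with siControl. The 12 blood markers summed to 16.8 to 18.3 CPM with siALDOA and 13.3 to 15.2 CPM with siControl. Nearly all of this was CD14, at 16.9 ± 0.712 and 13.5 ± 1.04 CPM (SD, n = 3). Of the 12, 9 had a count in some library and 2 were tested. CD14 was called higher with siALDOA (log2 fold change 0.32), and the other tested marker was not called (-0.74). CD3E and TYROBP had no count in any library. PTPRC, which marks all white blood cells, had 0 counts with siALDOA. The 10 fibroblast and endothelial markers summed to 3.66 to 4.89 CPM and 3.54 to 4.97 CPM. The part of other cells in the results below was not tested.

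Of the 10 members, 8 passed edgeR's filter and 2, IFNB1 and IFNL2, were too low to be tested. Among the 8, 3 were called higher with siALDOA at an adjusted p under 0.05 (IFNE, IFNL1 and IFNGR2), 0 were called lower and 5 were not called. Over all 15307 genes tested, 4.36% were called higher and 5.29% lower. The CPM of the groups did not overlap for 3 of the 8, against 27.7% of all genes tested. Since the set was picked on this contrast, nothing is read from these shares or calls. Nor did they hold throughout when 1 library was left out: the call of IFNL1 was lost without any of the 6 libraries (log2 fold changes of 1.84 to 2.23), that of IFNE without siALDOA replicate 1 (0.52), siControl replicate 2 (0.48) or siControl replicate 3 (0.63), and that of IFNGR2 without any library (0.20 to 0.31) other than siALDOA replicate 2. IFNL1 was also not called with DESeq2 (2.07) or without a filter on low counts (2.03), nor IFNGR2 with limma-voom (0.27). Without that filter IFNB1 could be fitted and was not called (5.22). IFNL2 was called in the 5 alternatives that could fit it, which it entered through its siALDOA reads. IFNL1 could pass the filter only through its siALDOA libraries, the group where it is high.

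IFNB1 and IFNL2 were read only in siALDOA libraries. IFNB1, the interferon most cells make first on viral infection, had 2, 5 and 6 reads with siALDOA and 0, 0 and 0 with siControl. The sum of 13 against 0 is 4.75-fold higher per read of depth if 3 counts over the siControl group stand for the 0. This is no lower bound, since the 95% exact intervals are 6.92 to 22.2 reads for the 13 and 0 to 3.69 for the 0. All 3 siALDOA libraries lay above all siControl libraries, and the lowest of them rested on 2 reads. IFNL2, a lambda ligand, had 3, 11 and 17 reads with siALDOA and 0, 0 and 0 with siControl. Its 31 against 0 reads are 11.3-fold higher with the same 3 counts for the 0, again without counting error and so not a lower bound. As with IFNB1, the groups did not overlap and replicate 1 was the lowest siALDOA library. In bulk RNA, a few cells with many transcripts and many cells with few cannot be told apart, and neither can fewer cells of a type and less RNA per cell.

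IFNL1, the third lambda ligand gene of the cluster, had 16, 17 and 13 reads with siALDOA and 5, 4 and 3 with siControl. It was thus read in every library, and its lowest siALDOA library, with 13 reads, lay well above its highest siControl library, with 5. The sums of 46 and 12 reads gave a ratio per depth of 4.20 (95% exact interval 2.19 to 8.72, counting error only). The fitted log2 fold change was 2.03 (SE 0.57). It was 1.84 to 2.23 in the 13 alternatives in which IFNL1 could be fitted.

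IFNE was of another order of abundance, with 247, 199 and 203 reads with siALDOA and 192, 108 and 154 with siControl. In CPM these are 8.87, 6.62 and 7.14 with siALDOA and 6.16, 3.54 and 4.67 with siControl. The groups did not overlap, but siALDOA replicate 2 and siControl replicate 1 were close. IFNE was highest in siALDOA replicate 1, the library in which IFNB1 and IFNL2 were lowest. The log2 fold change was 0.65 (SE 0.18), smaller than the 2.03 of IFNL1, while IFNB1 and IFNL2 did not pass the filter. In CPM the difference of IFNE, 2.76, was the largest of the 4 ligands. Over the alternatives its log2 fold change was 0.48 without siControl replicate 2 to 0.87 without siControl replicate 1.

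**Figure D1:**
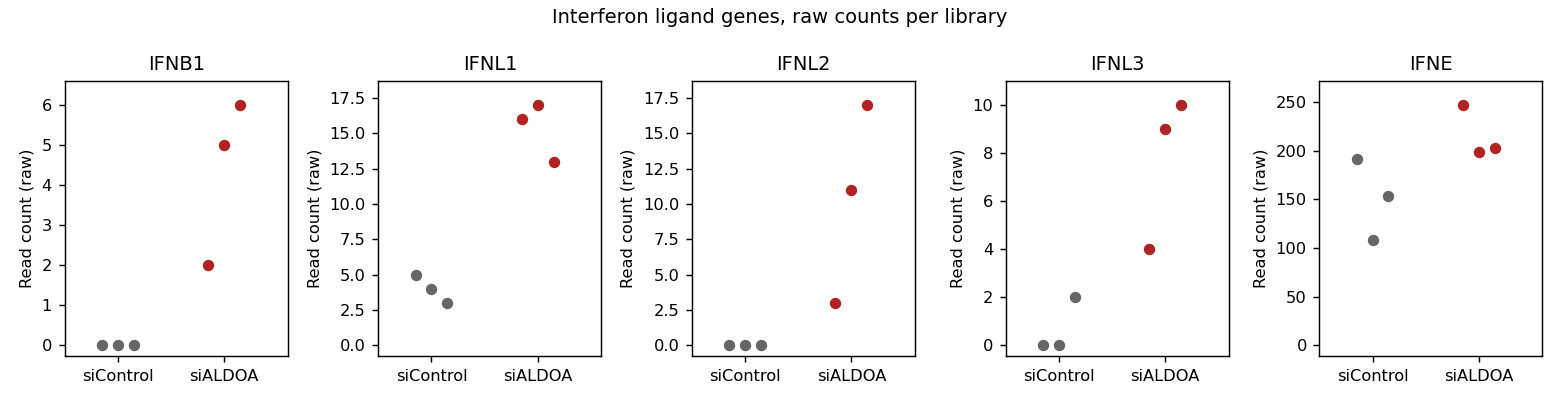
Raw read counts of 5 interferon ligand genes in each library, 1 panel per gene with its own linear axis and 1 point per library (grey siControl, red siALDOA, in replicate order from left to right). IFNB1 and IFNL2 have 0 reads in every siControl library, IFNL1 has 3 to 5, and IFNE has over 100 reads in all 6 libraries.

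The other interferon genes were listed to see which ligands these cells read at all. Of 18 further ligand genes, 11 had no read in any library, among them IFNG, so that the ligand of the type II receptor was not detected at this depth. IFNL3, the near copy of IFNL2, had 4, 9 and 10 reads with siALDOA and 0, 0 and 2 with siControl. The ratio of its sums, 23 and 2, was 12.6 (95% exact interval 3.12 to 110, counting error only). IFNL4, a lambda ligand that lies beside them, had 4, 3 and 0 reads with siALDOA and none with siControl, and its groups overlapped. IFNA1, 1 of the many IFNA genes, had 11, 4 and 7 reads with siALDOA and 7, 2 and 1 with siControl, again with overlap. IFNA8 had 2 reads in siALDOA replicate 3 and 2, 0 and 1 in the siControl libraries. IFNA13 had 3 reads in siALDOA replicate 1 and 1 in siControl replicate 2. IFNA21 had 2 reads in siALDOA replicate 2, and IFNK had 1 in siALDOA replicate 3. Beyond IFNB1 and IFNE, then, reads of type I ligand genes were few and present in both groups for IFNA1, IFNA8 and IFNA13.

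The lambda genes share sequence, which limits how reads can be divided between them. The IFNL2 and IFNL3 transcripts were identical at 98.0% of 951 aligned bases. Of all stretches of 150 bases, the read length, 5.11% of those in IFNL2 also occurred in IFNL3, and 37.8% of the stretches of 50 bases did. How the authors' counting treated such reads is not stated, so IFNL2 and IFNL3 are uncertain one by one. IFNL1 shared no stretch of 50 bases with IFNL2 or IFNL3. Taken as 1 sum, IFNL1, IFNL2 and IFNL3 had 23, 37 and 40 reads with siALDOA and 5, 4 and 5 with siControl. The 100 and 14 reads gave a ratio of 7.83 (95% exact interval 4.46 to 14.8, counting error only and not the spread between libraries). The sum does not turn on how reads were divided between the genes, but reads counted on both IFNL2 and IFNL3, or on neither, would change it, and this was not tested. The lowest siALDOA sum was 23 and the highest siControl sum 5.

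The receptor chains were read in all 6 libraries, from 159 reads of IFNLR1 to 2066 of IFNGR1, both in siControl replicate 2. Their levels were compared with each other as CPM per kilobase of the MANE Select transcript. With siControl the order was IFNGR1 at 30.2 ± 2.12, IFNGR2 at 20.8 ± 0.914, IL10RB at 6.45 ± 0.388, IFNAR1 at 5.59 ± 0.230, IFNAR2 at 3.67 ± 0.114 and IFNLR1 at 1.21 ± 0.173 CPM per kb (SD, n = 3). No chain overlapped its neighbour in this order over the 3 siControl libraries. With siALDOA the order was the same, but IFNGR1 (25.8 to 29.0) and IFNGR2 (22.2 to 27.6) overlapped. The type II chains were thus the most abundant, and IFNLR1, the chain particular to lambda ligands, was the least on this scale. The order below the type II chains depends on the transcript length used: with the union of all exons IFNAR1 was at 2.16, IL10RB at 1.56, IFNLR1 at 1.12 and IFNAR2 at 1.08 CPM per kb. IFNE, at 3.25 ± 0.890 CPM per kb, overlapped IFNAR2 with siControl, and at 5.12 ± 0.799 with siALDOA it overlapped IFNAR1 instead. IFNL1 stood at 0.165 ± 0.0449 CPM per kb with siControl and 0.687 ± 0.0842 with siALDOA (SD, n = 3).

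**Figure D2:**
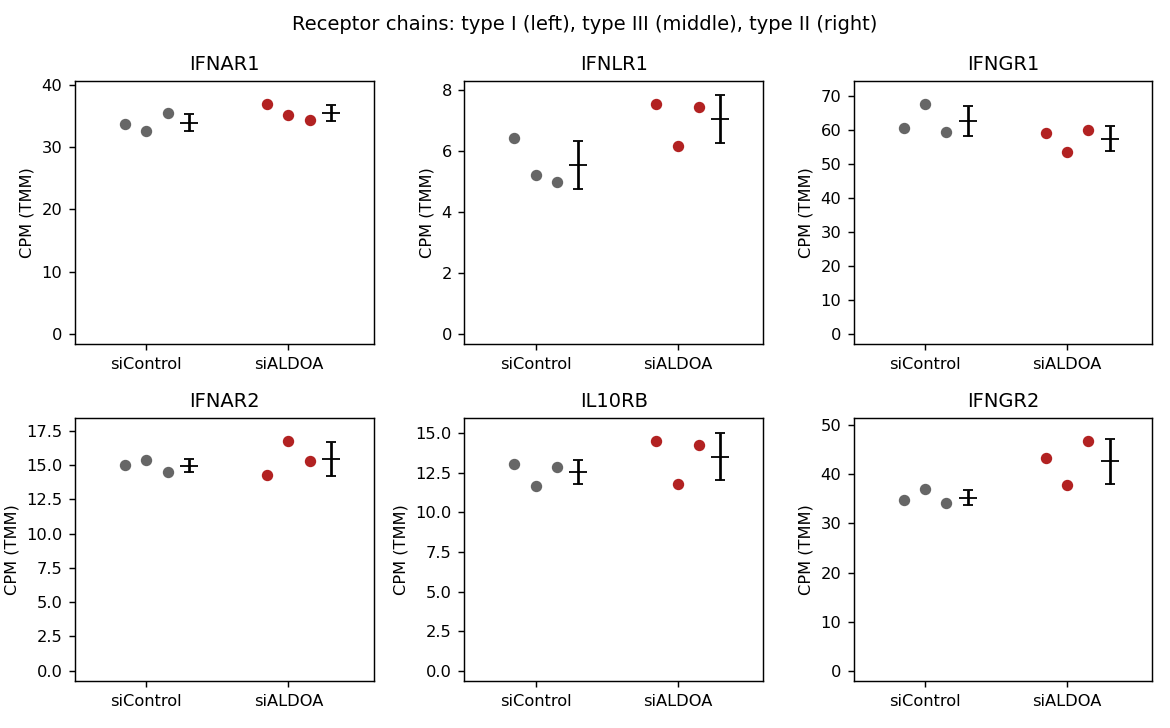
CPM (TMM scaled) of the 6 receptor chains per library, with type I chains on the left, type III chains in the middle and type II chains on the right. Points are libraries (grey siControl, red siALDOA), black bars are the mean and SD of 3 libraries, and each linear axis starts at 0. IFNGR2 is the chain whose groups do not overlap.

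The type I chains differed little between the groups. IFNAR1, the chain that holds the kinase TYK2, was at 36.9, 35.2 and 34.4 CPM with siALDOA and 33.7, 32.6 and 35.4 CPM with siControl. IFNAR2, which holds JAK1, was at 14.3, 16.8 and 15.3 CPM with siALDOA and 15.0, 15.4 and 14.5 CPM with siControl. The groups overlapped for both chains. The log2 fold changes were 0.064 (SE 0.074) for IFNAR1 and 0.047 (SE 0.10) for IFNAR2, and the latter turned to -0.017 without siALDOA replicate 2. IFNAR2 and IL10RB also give rise to a readthrough transcript, IFNAR2-IL10RB, whose exons cover 49.1% of the IFNAR2 and 89.2% of the IL10RB transcript bases. The files listed no symbol for it, so reads of the readthrough cannot be told apart from those of IFNAR2 or IL10RB.

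Of the type III chains, IFNLR1 had the larger difference. It was at 7.54, 6.16 and 7.46 CPM with siALDOA and 6.45, 5.21 and 4.98 CPM with siControl, so that siALDOA replicate 2 lay under siControl replicate 1. The log2 fold change was 0.35 (SE 0.16), with 0.27 to 0.47 over the 14 alternatives. IL10RB was at 14.5, 11.8 and 14.2 CPM with siALDOA and 13.1, 11.7 and 12.9 CPM with siControl. Its groups overlapped, with a log2 fold change of 0.11 (SE 0.11), which was 0.053 without siALDOA replicate 1 and 0.20 without siALDOA replicate 2.

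Of the type II chains, IFNGR2 differed more than IFNGR1. IFNGR2 was at 43.4, 37.8 and 46.8 CPM with siALDOA and 34.7, 37.0 and 34.1 CPM with siControl. The groups did not overlap, though siALDOA replicate 2 and siControl replicate 2 were close. The means were 42.7 ± 4.58 CPM with siALDOA and 35.3 ± 1.55 CPM with siControl (SD, n = 3), a difference of 20.9%, and the log2 fold change was 0.27 (SE 0.081). Over the alternatives it was 0.20 without siALDOA replicate 3 to 0.35 without siALDOA replicate 2. IFNGR1 was at 59.1, 53.5 and 60.1 CPM with siALDOA and 60.7, 67.7 and 59.6 CPM with siControl. These overlapped, and the log2 fold change was -0.12 (SE 0.071), or -0.049 with library totals only.

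Ratios of the 2 chains of a receptor within a library do not depend on how libraries are scaled. The ratio of IFNGR1 to IFNGR2 counts was 1.36, 1.42 and 1.28 with siALDOA and 1.75, 1.83 and 1.75 with siControl. The means were 1.35 ± 0.067 and 1.78 ± 0.046 (SD, n = 3), and the groups lay further apart than for either chain alone. For IL10RB to IFNLR1 the ratios were 1.92, 1.92 and 1.91 with siALDOA and 2.02, 2.24 and 2.59 with siControl. These did not overlap either, but siControl replicate 1 was close to the siALDOA libraries. IFNAR1 to IFNAR2 ratios were 2.1 to 2.58 with siALDOA and 2.12 to 2.45 with siControl, and they overlapped. The chains were chosen on the same contrast, so the ratios are a description as well.

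**Figure D3:**
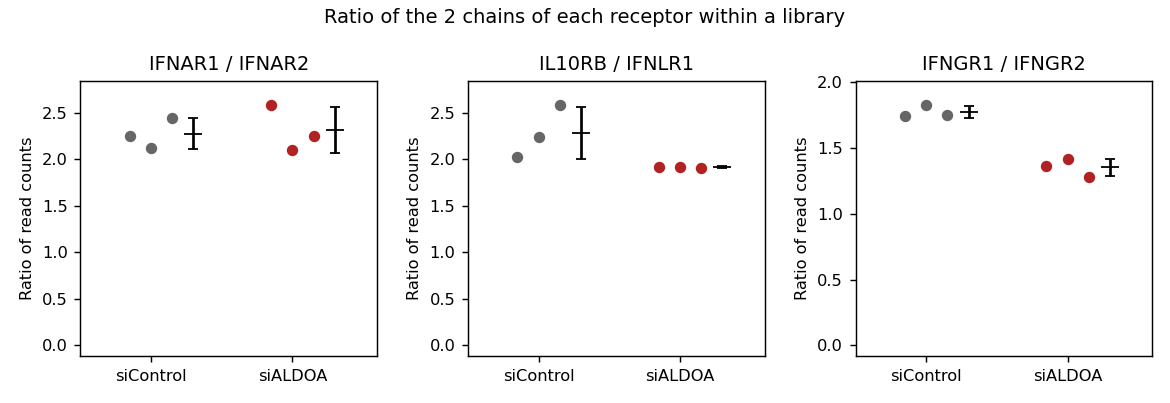
Ratio of read counts of the 2 chains of each receptor within a library, from left to right for types I, III and II. Points are libraries (grey siControl, red siALDOA), black bars are the mean and SD of 3 libraries, and each linear axis starts at 0. The IFNGR1 to IFNGR2 ratio is 1.28 to 1.42 with siALDOA and 1.75 to 1.83 with siControl.

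Genes that overlap the members were examined because the strand setting of the counts is not stated. IFNGR2 ends inside TMEM50B (chr21:33432486-33479974), a membrane protein gene on the other strand, and 199 of its 1699 transcript bases (11.7%) fall in an exon of some TMEM50B transcript, though 0 fall in the MANE Select transcript of TMEM50B. TMEM50B was at 23.0, 19.7 and 22.9 CPM with siALDOA and 15.1, 15.4 and 14.5 CPM with siControl. It rose by a log2 fold change of 0.54 (SE 0.097, edgeR adjusted p = 8.95e-04). In CPM its difference was 6.83, beside 7.39 for IFNGR2, and both genes were lowest in replicate 2 among the siALDOA libraries. The same library was also the lowest for IFNE, IFNLR1, IL10RB and IFNGR1, which lie elsewhere, so this order is not particular to the overlapping genes. Without strand, reads of one in the shared bases cannot be told apart from reads of the other, and how many there were was not tested.

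IFNE lies within MIR31HG (chr9:21454268-21559798), the host gene of a microRNA, on the same strand but outside its exons. MIR31HG had 551, 660 and 601 reads with siALDOA and 813, 630 and 676 with siControl. Its log2 fold change was -0.095 (SE 0.10, edgeR adjusted p = 0.630), and it turned to 0.027 without siControl replicate 1. The ratio of IFNE to MIR31HG reads was 0.448, 0.302 and 0.338 with siALDOA and 0.236, 0.171 and 0.228 with siControl, without overlap. Of the other neighbours, KLHL9 (-0.024) and HACD4 (0.23) beside the type I cluster, GART (-0.047) and DNAJC28 (0.57) on chromosome 21, GRHL3 (-0.33) and MYOM3 (0.070) beside IFNLR1 and LRFN1 (-0.078) near the lambda cluster were not called. NCCRP1 was too low to be tested. TMEM50B was thus the 1 gene called among 9 tested neighbours.

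**Figure D4:**
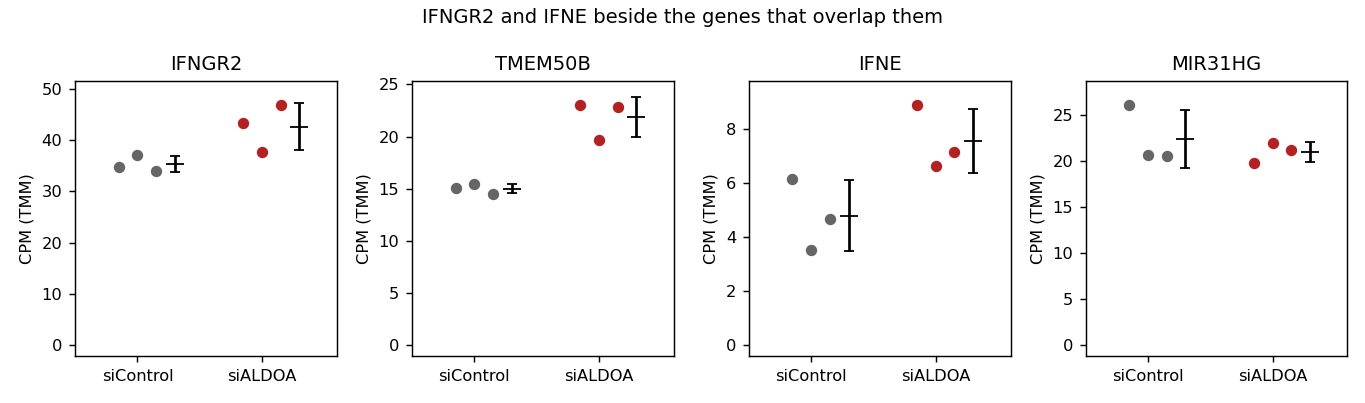
CPM (TMM scaled) of IFNGR2 and IFNE, each followed by the gene that overlaps it, per library. Points are libraries (grey siControl, red siALDOA), black bars are the mean and SD of 3 libraries, and each linear axis starts at 0. TMEM50B is higher with siALDOA as IFNGR2 is, whereas MIR31HG overlaps between the groups.

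The pathway around the members was described with lists, also written with earlier results of these data known, so that their directions are no independent evidence. Over all genes tested the median log2 fold change was 0.0016. Among genes that sense nucleic acids and switch on ligand genes, 7 of 21 tested rose and 4 fell, with a median of 0.15. The RNA sensors DDX58 (RIG-I) and IFIH1 (MDA5) rose by 1.21 (SE 0.063) and 1.25 (SE 0.070), with edgeR adjusted p of 6.02e-11 and 1.28e-10. ZBP1, another nucleic acid sensor, rose by 2.38 (SE 0.25, edgeR adjusted p = 1.10e-06), from 1.67 ± 0.562 to 8.69 ± 2.60 CPM (SD, n = 3). IRF7, a factor that drives ligand genes, rose by 0.76 (SE 0.074). IRF3, which does so early, had a log2 fold change of 0.092 and TBK1, its kinase, of -0.050, and neither was called. JUN, an AP-1 factor, had -0.41 (SE 0.056, edgeR adjusted p = 5.02e-05). The adaptors TICAM1 and MAVS had -0.40 and -0.22, and IRF5 had -0.41. Of these 4, JUN was the 1 whose call was kept with library totals only and without siControl replicate 3, where TICAM1 had -0.36, MAVS -0.23 and IRF5 -0.39. MAVS also lost its call without siControl replicate 1 (-0.19), and IRF5 without siALDOA replicate 2 (-0.41), siALDOA replicate 3 (-0.34) or siControl replicate 2 (-0.39).

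Of the genes next to the receptors, 5 of 14 tested rose and 1 fell, with a median of 0.093. STAT2, a factor that type I and III receptors activate, rose by 0.78 (SE 0.071, edgeR adjusted p = 1.63e-07), and IRF9, which binds DNA with it and was named after its value was seen, by 0.27 (SE 0.076). The call of IRF9 was lost without any library other than siALDOA replicate 1, at 0.20 without siALDOA replicate 2 to 0.31 without siControl replicate 2. USP18, which binds IFNAR2 and damps signalling, rose by 0.70 (SE 0.099). STAT3 rose by 0.26 (SE 0.060, edgeR adjusted p = 0.00839), and the call was lost without siALDOA replicate 3 (0.22) and without siControl replicate 2 (0.24). The phosphatase PTPN11 fell by 0.24 on the log2 scale, and its call was lost without the same libraries (-0.21 and -0.22) and with library totals only (-0.17). The receptor kinases were not called, with log2 fold changes of -0.15 for JAK1, -0.24 for JAK2 and 0.068 for TYK2.

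Downstream of the type I and III receptors, 29 of 30 target genes rose and 0 fell, and the median of their log2 fold changes was 1.41. RSAD2, which blocks viral replication, was at 99.3 ± 16.0 CPM with siALDOA (lowest library 81.3) and 19.9 ± 2.26 CPM with siControl (highest library 22.4) (SD, n = 3), a log2 fold change of 2.32 (SE 0.10, edgeR adjusted p = 6.15e-12). IFIT1, which binds foreign RNA, was at 444, 521 and 524 CPM with siALDOA and 131, 161 and 149 CPM with siControl. IFI44L (1.77) and IFITM1 (1.99), an inhibitor of virus entry, rose as well. RSAD2, IFIT1, IFI44L and IFITM1 were lowest in replicate 1 among the siALDOA libraries, as IFNB1, IFNL2 and IFNL3 were, whereas IFNL1 was lowest in replicate 3 and IFNE, IFNL4 and IFNA1 were highest in replicate 1. Replicate 1 was the siALDOA library that stood apart above, with 13.1% ribosomal RNA. The IFNB1 order rests on 2, 5 and 6 reads, and BST2, another of the 30 targets, was lowest in replicate 3. Whether ligands and targets go together across libraries was not tested. ISG20, with 0.33, was the gene that did not pass (edgeR adjusted p = 0.0508), and it passed in 8 of 14 alternatives.

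Of 13 tested genes that answer interferon gamma more strongly, 5 rose and 1 fell, with a median of 0.39. The chemokine CXCL10 rose by 1.86 (SE 0.30, edgeR adjusted p = 2.71e-04), and GBP4, GBP1 and IRF1 rose by 0.90, 0.72 and 0.39. APOL3, named after its value was seen, rose by 0.87. All of these also answer type I interferon to some degree. WARS1, a tRNA synthetase, fell by 0.39 on the log2 scale. CIITA, the factor that turns on HLA class II genes, had a log2 fold change of -0.062, and GBP2 of -0.020. IDO1 and CXCL9 were too low to be tested.

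Other receptors that use JAK kinases gave a view of the receptor class outside the members. Of 8 tested, 0 rose and 1 fell, and their log2 fold changes had a median of 0.062. The gene that fell was IL4R, with -0.39 (SE 0.064, edgeR adjusted p = 3.06e-04). IL6ST, shared by IL-6 family receptors, had 0.059, and IL13RA1 had 0.015. Of the relatives of IFNLR1 and IL10RB in the class II family, 4 were tested and 0 were called. IL22RA1, which pairs with IL10RB to bind IL-22, had 0.036 at 47.0 ± 5.07 and 45.9 ± 1.44 CPM (SD, n = 3). IL20RA had 0.066, IL20RB -0.45 and F3 -0.56. IL10RA had a mean of 0.107 CPM with siALDOA and 0.103 with siControl.

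**Figure D5:**
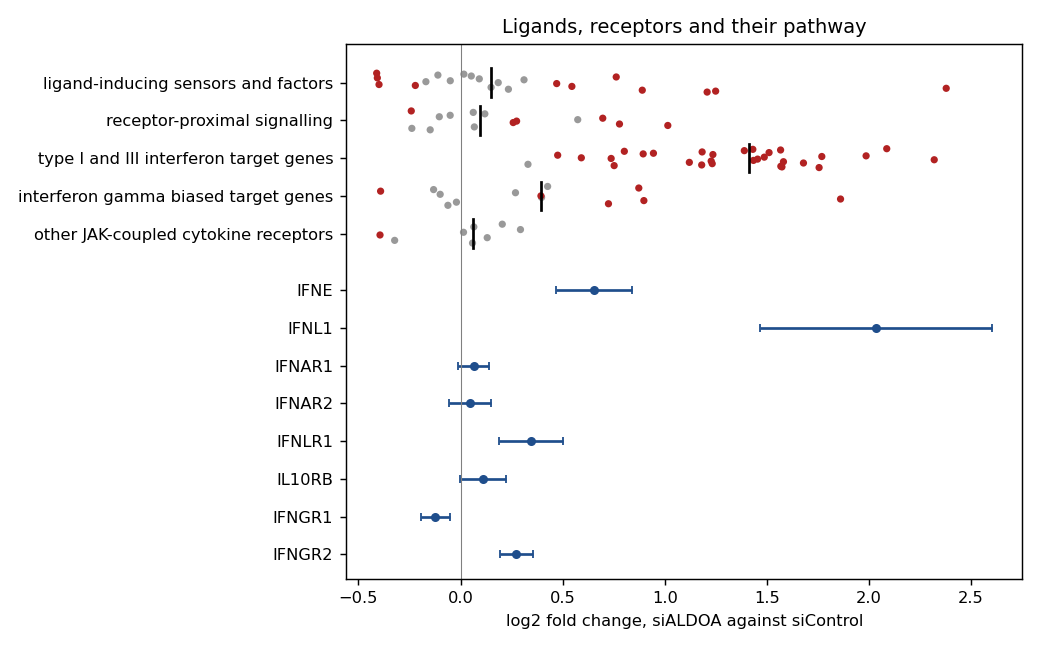
Log2 fold change with siALDOA against siControl for the 8 fitted members (blue, bars are the SE of the fit) and for the genes of 5 pathway lists (each dot a gene, red where the edgeR adjusted p is under 0.05, black bar the median). The 30 type I and III target genes lie right of 0, while the members other than IFNL1 and IFNE lie between -0.12 and 0.35.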

How the data were processed

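RNA-Seq counts of 6 HT29 libraries were used, 3 with siALDOA and 3 with siControl. The authors used tophat2 to align paired-end reads of 150 bases to the hg38 genome and gfold to count reads on each gene symbol. The deposited values are raw counts of 1 library per file. The annotation, the strand setting and the treatment of reads with several matches are not given in the sources used here. The 4 RNA18SN genes had identical counts in each library.

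Counts were fitted in R 4.3.3 with edgeR 4.0.16 (filterByExpr, TMM, quasi-likelihood test) over all 15307 genes that passed the filter, with Benjamini-Hochberg adjustment and a threshold of 0.05. No covariate was used, and all 6 libraries entered. CPM used TMM library sizes. Low ligands were given as raw counts, with ratios per depth and 95% exact intervals from scipy 1.17.1, which cover counting error only. Where a group had 0 reads, 3 counts over the group stood for the 0. Transcript lengths came from GENCODE 44, and positions and promoters from RefSeq GRCh38.p14 (9 of 10 members matched).

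The members and lists were chosen with earlier results of these data known, so the members' calls in this fit support nothing and no p is given for them. From each list the 4 genes with the smallest p in each direction were named, beside ALDOA, the members, ligand genes with any count, tested class II receptor genes and neighbouring genes. Other named genes give context. The values of 1 gene that the rule takes are not reported here. Alternatives were library totals only, upper quartile, DESeq2 1.42.0, limma-voom (limma 3.58.1), no filter, a minimum of 10 counts per library, the replicate number as a block, removal of ribosomal RNA genes, and the omission of each library in turn. Replicates of a group differed by more than sampling noise.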

Additional observations from a re-analysis of the deposited data

How the results depend on the processing

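With library totals only, the median log2 fold change of all genes tested shifted to 0.075. Under it 279 genes were lower instead of 810 and 896 higher instead of 668, so the balance between the directions turned round. Receptor-proximal genes lower came to 0 and ligand-inducing genes lower to 1 with library totals only. MAVS, TICAM1, IRF5 and PTPN11 then had edgeR adjusted p of 0.315, 0.0826, 0.0887 and 0.214. Their log2 fold changes kept their direction, at -0.15, -0.33, -0.34 and -0.17. Leaving out each library in turn gave 359 to 644 genes higher and 471 to 790 lower. It gave 3 to 5 receptor-proximal genes higher and 0 to 1 lower, 1 to 4 ligand-inducing genes lower, and 1 to 2 other JAK-coupled receptors lower. Under these fits 28 to 30 type I and III target genes were higher. The counts of 7 ligand-inducing genes and 5 interferon gamma biased genes higher were the same number in all 14 alternatives. MIR31HG ranged from -0.16 without siControl replicate 3 to 0.027 without siControl replicate 1. Among members, the log2 fold changes that moved by more than the SE of the fit were those of IFNE, 0.87 without siControl replicate 1 against 0.65, and of IFNGR1, -0.049 with library totals only against -0.12. IFNL1 could not be fitted with at least 10 counts in every library.

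The replicate block gave 987 genes higher and 1175 lower, and 30 type I and III target genes higher. Same-numbered libraries correlated at 0.035, 0.027 and 0.026 in their deviations from the group means, so the numbers were not taken to pair them, although each library correlated best with its own number, which is a hint from the data only. Depth limits the ligands with few reads: the 13 reads of IFNB1 have a 95% exact Poisson interval of 6.92 to 22.2 reads.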
